A study of Caenorhabditis elegans with 48 samples.

Results

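Translational efficiency (TE) was read in well-fed worms (Caenorhabditis elegans, group Fed) as the share of ribosome footprints a gene took, divided by its share of messenger RNA. The genes described are those present in both the mRNA-seq and the Ribo-seq count table, which are 10741 of the 19454 genes of the mRNA-seq table. Of these, 10096 had enough counts in both assays to be tested and 645 did not. The values come from 12 of the 48 libraries of the study, namely Fed replicates 1 to 6 in each assay, all labelled young adult, with the treatment given as Fed and with no strain, allele or other agent named. The rest of the study holds Starved worms and a separate knockdown experiment, whose Empty_vector control is used here only as another set of 4 libraries per assay in which the same ratio could be read. No difference between groups is tested, and Empty_vector values are set beside those of Fed as a description.

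In ribosome profiling, the stretches of mRNA shielded by ribosomes are sequenced, so that footprints per gene reflect how many ribosomes sit on its mRNAs, while the matched mRNA-seq of poly(A) RNA gives how much mRNA there is. Their ratio can differ between genes when messages are initiated at different rates, or when some are held out of polysomes altogether. In worms this is best known for maternal messages of the germline, which RNA-binding proteins keep silent until the embryo, and for messages of the translation apparatus, whose loading follows growth signals.

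Fed mRNA-seq libraries held 20094864 to 22837203 counts and Fed Ribo-seq libraries 4170208 to 7034632, so the footprint counts limit the precision of a TE. Whether the numbered replicates came from separate cultures is not labelled, and every p-value refers to the spread between these libraries, which may be technical. Marker genes of several stages and tissues were read to check the young adult label. The 6 yolk protein genes of adults summed to between 1.77 and 3.02 CPM (counts scaled to a library total of 1000000) of mRNA in each library, and the 60 sperm protein genes to between 3.44 and 5.47 CPM, with 14 of them at 0 in all 6 libraries. Another 4 genes, collagens of the adult cuticle, summed to between 0.846 and 2.36 CPM. These low levels go against the young adult label. The 11 oocyte genes, at 393 to 551 CPM, do not, but maternal messages are also kept into the embryo. Larval cuticle collagens, 9 genes, summed to between 3809 and 4151 CPM. The sum does not show how many of the 9 carry it, since the cuticle collagen sqt-3 alone had 3466 to 3846 CPM. Only 3 of the 9 have a Ribo-seq row, and 1 was at 0 in at least 1 mRNA-seq library. Another 7 genes of the embryonic sheath and apical matrix summed to between 3590 and 3994 CPM, and 8 germline genes to between 726 and 875 CPM. Early zygotic genes of the embryo, 13 in number, summed to between 240 and 269 CPM, with none at 0 in any library. Genes of the embryo at such levels also go against the label, unless embryos were sampled with the worms, which is not labelled. The libraries are called Fed here and the stage is left as the submitters gave it. No tissue is named, so a share of counts cannot tell fewer cells of a type from less RNA per cell.

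Footprints largely followed mRNA across genes. Within a replicate number, log2 CPM in the 2 assays had a Pearson r of 0.888 to 0.892 over 10096 genes, which are not independent of each other. The log2 TE had a median of -0.04 and a standard deviation of 0.93 over genes, against a standard deviation of 1.95 for log2 mRNA CPM. The middle 50 percent of genes lay between -0.63 and 0.44, a 2.098-fold range, and the 5th and 95th percentiles, at -1.75 and 1.08, were 7.13-fold apart. The lower tail was the longer one, with the 1st percentile at -2.69 and the 99th at 1.61. Between replicate numbers, log2 TE correlated across genes with r between 0.939 and 0.957, and the median gene had a standard deviation of 0.147 over the 6 numbers.

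Because the spread between libraries was small, most genes passed a plain test. With edgeR's quasi-likelihood test and Benjamini-Hochberg adjustment over all genes tested, 39.4% of genes had a TE above the library average and 43.7% below it at adjusted p under 0.05. A stricter rule is therefore used for naming genes. By this 2-fold rule, a gene is called high or low when edgeR's test against a 2-fold difference gave adjusted p under 0.05. It called 428 genes high (4.24%) and 1199 genes low (11.9%). For 31.1% of genes all 6 Ribo-seq libraries were above all 6 mRNA-seq libraries in CPM, and for 36.5% all were below. A share of a gene family near these figures says nothing about the family. Where none of a list is given as high or as low below, the count by edgeR was also 0 at an unadjusted p under 0.05, and it was 0 with limma voom and with DESeq2.

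**Figure D1:**
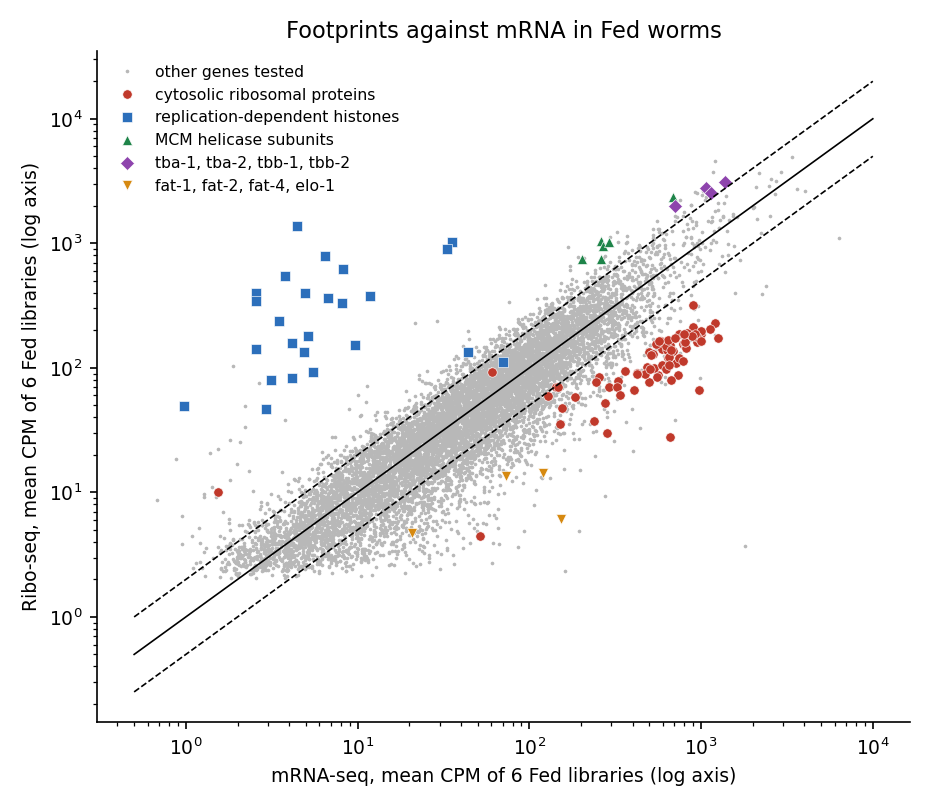
Mean Ribo-seq CPM against mean mRNA-seq CPM over 6 Fed libraries each, both on log axes, with 1 point per gene tested. The solid line marks equal shares and the dashed lines a 2-fold difference; cytosolic ribosomal proteins lie below the lower dashed line with few exceptions, and all replication-dependent histones but his-37 lie above the upper one.

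The plot of footprints against mRNA shows the gene lists with the lowest medians of those examined, the proteins of the cytosolic ribosome. These messages were abundant and carried few footprints. Of 43 large subunit genes tested, 40 were low, 1 was high and 2 were neither, and of 31 small subunit genes 29 were low and 2 were neither. The median log2 TE was -2.22 for the large and -2.33 for the small subunit, beside -0.04 over all genes. Large subunit genes took 2.37% ± 0.105 (SD, n = 6) of mRNA counts and 0.499% ± 0.0514 (SD, n = 6) of footprint counts. Small subunit genes took 1.96% ± 0.0886 (SD, n = 6) of mRNA counts and 0.381% ± 0.0410 (SD, n = 6) of footprint counts, and in neither subunit did the libraries of the 2 assays overlap.

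Members of the ribosome differed among themselves. The lowest was rps-12, a small subunit protein, with 600.1, 650 and 711 CPM of mRNA as the lowest, median and highest of 6 libraries and 23.6, 27.1 and 33.96 CPM of footprints. Its log2 TE was -4.57 ± 0.06 (SE), a 23.8-fold lower share of footprints than of mRNA (edgeR test against 2-fold, adjusted p = 2.14e-27). Next came rpl-2 of the large subunit, with 937, 963 and 1024 CPM of mRNA, 59.5, 63.7 and 77.5 CPM of footprints and a log2 TE of -3.87 ± 0.05 (SE). For both genes every Ribo-seq library lay far below every mRNA-seq library.

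More typical was rla-0, which encodes the base of the ribosomal stalk. It had 1183, 1229 and 1357 CPM of mRNA and 133, 176 and 221 CPM of footprints, with a log2 TE of -2.85 ± 0.11 (SE). The least low of the called members was rpl-10, at -1.49 ± 0.07 (SE). Those that missed the rule were rpl-29 at -1.11 ± 0.19 (SE), rps-28 at -1.03 ± 0.24 (SE), rps-29 at -1.06 ± 0.18 (SE) and rpl-39 at 0.61 ± 0.19 (SE). All are small proteins, and rpl-39 was the one whose libraries overlapped between assays. In these 4 genes mRNA-seq replicates 5 and 6 stood above the others. For rps-28 they were at 214.5 and 204.2 CPM where replicates 1 to 4 lay between 100.9 and 124.2 CPM, and Ribo-seq ranged from 67.4 to 74.8 CPM. The single high member, rpl-37, was listed at only 1.04, 1.46 and 2.37 CPM of mRNA against 8.15, 9.69 and 13.9 CPM of footprints. It has near-identical copies, and the counting could have split their reads, so its value is uncertain.

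Genes of the mitochondrial ribosome stood near the library average. The 69 mitochondrial ribosomal protein genes had a median log2 TE of -0.05, with 1 high and 2 low, which is under the share over all genes in both directions. They took 0.291% of mRNA counts and 0.268% of footprint counts. Genes that build ribosomes, on a list of ribosome biogenesis and exosome factors, had a median of 0.00. Of 64, 2 were high (3.1%) and 9 low (14.1%), beside 4.24% and 11.9% of all genes. Aminoacyl-tRNA synthetases, which charge tRNAs, had a median of -0.38, with 2 low (6.67%) of 30.

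Elongation factors followed the ribosome in part. Of 14 elongation and release factors, 5 were low (35.7%, beside 11.9% of all genes) and none was high. The subunits of the complex that recharges elongation factor 1A with GTP were among them. Its gamma subunit, eef-1G, had 952, 986 and 1017 CPM of mRNA and 70.1, 81.4 and 99.4 CPM of footprints, with a log2 TE of -3.58 ± 0.07 (SE). Its beta-type subunits, eef-1B.1 and eef-1B.2, had log2 TE of -3.06 ± 0.06 (SE) and -1.80 ± 0.05 (SE). In all 3 genes the assays did not overlap.

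Factor 1A itself, which brings aminoacyl-tRNA to the ribosome, is made from a pair of genes. The gene with the most mRNA counts of any in Fed was eef-1A.1, with 6076, 6393 and 6571 CPM of mRNA but 873, 1080 and 1438 CPM of footprints and a log2 TE of -2.53 ± 0.12 (SE). Its partner eef-1A.2 had 1811, 2053 and 2180 CPM of mRNA, 1796, 1915 and 2297 CPM of footprints and a log2 TE of -0.04 ± 0.05 (SE), with overlapping libraries. The coding sequences are close copies, so reads could have been split between them. The translocation factor eef-2 was at -0.61 ± 0.04 (SE), which missed the 2-fold rule, and gfm-1, the translocation factor of mitochondria, was low at -1.88 ± 0.06 (SE).

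Initiation factors as a list were near the background, with single genes at both ends. Of 38 tested, 5 were low (13.2%) and 1 was high (2.63%), beside 11.9% and 4.24% of all genes. The median log2 TE was 0.16. The lowest was iff-1, a germline form of factor 5A, with 173, 202 and 210.2 CPM of mRNA, 12.5, 15.1 and 17.5 CPM of footprints and a log2 TE of -3.71 ± 0.06 (SE) (adjusted p = 3.10e-26 in edgeR's test against 2-fold). The other factor 5A gene, iff-2, was at -1.29 ± 0.04 (SE). The cap-binding protein ife-1, known from germ granules and sperm development, had 91.9, 96.9 and 102 CPM of mRNA, 13.7, 16.9 and 20.2 CPM of footprints and a log2 TE of -2.51 ± 0.06 (SE). At the other end stood inf-1, the RNA helicase eIF4A, with 492, 530.4 and 557 CPM of mRNA, 1106, 1153 and 1203 CPM of footprints and a log2 TE of 1.13 ± 0.04 (SE) (adjusted p = 8.36e-04). Poly(A)-binding protein pab-1 was at -0.89 ± 0.04 (SE) and missed the rule.

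Genes known for translational control of their own messages, or for setting its rate, included several low ones. On a list of 12, 5 were low (41.7%, beside 11.9% of all genes), none was high and 11 were below 0. The median log2 TE was -0.97. The transcription factor atf-4, whose mammalian counterpart has upstream reading frames that hold back translation in unstressed cells, had 78.8, 86.5 and 96.3 CPM of mRNA and 2.48, 3.26 and 4.99 CPM of footprints. Its log2 TE was -4.53 ± 0.10 (SE), a 23.1-fold lower share (adjusted p = 5.19e-23 in edgeR's test against 2-fold), and no library of one assay reached the other. The stress kinase gcn-2 was low at -1.26 ± 0.04 (SE), while pek-1, the kinase of the endoplasmic reticulum, was at -1.04 ± 0.05 (SE) and missed the rule. In polyamine synthesis, smd-1 was low at -1.21 ± 0.05 (SE). The antizyme gene oaz-1, which needs a frameshift to be read in full, was low at -1.08 ± 0.04 (SE) (adjusted p = 0.0224), a call lost in edgeR without replicate 6, with median centring or after thinning to equal depth, and lost with limma voom or DESeq2.

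**Figure D2:**
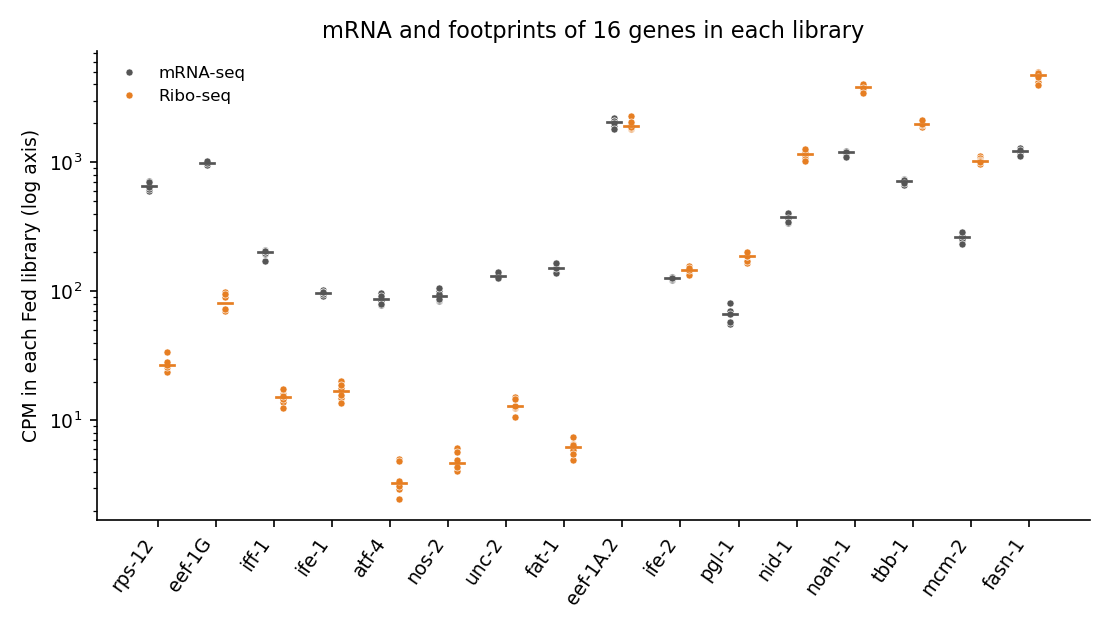
CPM in each of 6 mRNA-seq and 6 Ribo-seq Fed libraries for 16 genes, on a log axis, with a short line at the median of each assay. For rps-12 to fat-1 the footprints lie below the mRNA in all libraries, for eef-1A.2 the assays overlap, and for pgl-1 to fasn-1 the footprints lie above.

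Maternal messages of the germline held many of the lowest values, as the plot of single libraries shows for nos-2. Of 50 genes on a list of maternal RNA-binding proteins, 15 were low (30%, beside 11.9% of all genes) and none was high. The median log2 TE was -0.48. The Nanos gene nos-2, a classical example of a maternal message that is stored untranslated in worm oocytes, had 84.4, 91.3 and 106 CPM of mRNA and 4.08, 4.68 and 6.13 CPM of footprints. Its log2 TE was -4.22 ± 0.09 (SE), an 18.6-fold lower share (adjusted p = 1.01e-23 in edgeR's test against 2-fold). The repressor of germline messages gld-1 had 145, 162 and 175 CPM of mRNA, 27.3, 30.1 and 32.4 CPM of footprints and a log2 TE of -2.41 ± 0.06 (SE).

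Pumilio-family genes, which bind the tails of target messages, ranged from -3.98 for puf-7 to -0.50, with 5 of 7 puf genes low. Those named for oocyte development were among the lowest, puf-5 at -3.39 ± 0.16 (SE) and puf-11 at -3.69 ± 0.15 (SE). Several puf genes are near-identical copies of each other and their separate values are uncertain. Other maternal regulators lay closer to the library average and missed the 2-fold rule. Among them, pos-1 had 439, 470.1 and 553 CPM of mRNA and 481, 528 and 598 CPM of footprints, with overlapping libraries and a log2 TE of 0.14 ± 0.05 (SE). The oocyte maturation factor oma-1 was at -0.66 ± 0.07 (SE), mex-5 at -0.57 ± 0.07 (SE) and the helicase cgh-1 at 0.75 ± 0.04 (SE), all inside the 2-fold rule.

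Germ granule proteins had a median of -0.12, with 1 high (5.26%) and 3 low (15.8%) of 19, beside 4.24% and 11.9% of all genes. The high one was pgl-1, a scaffold of P granules, with 56.2, 66.5 and 80.5 CPM of mRNA, 165.8, 187 and 201 CPM of footprints and a log2 TE of 1.47 ± 0.08 (SE). Small RNA pathway genes included both kinds, with 3 high (5.08%) and 10 low (16.95%) of 59, beside 4.24% and 11.9% of all genes. The Piwi protein prg-1 was low at -1.68 ± 0.05 (SE) and the Dicer-related helicase drh-3 was high at 1.45 ± 0.05 (SE).

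The median log2 TE of 38 genes of meiotic recombination and synapsis was -0.65. Of these, 12 were low (31.6%, beside 11.9% of all genes) and none was high. Among them were spo-11, which makes the breaks that start recombination, at -2.59 ± 0.11 (SE), the X chromosome pairing factor him-8 at -2.21 ± 0.11 (SE) and the axis protein htp-2 at -3.12 ± 0.12 (SE). The direction changed with the filter used. Relative to the median of all genes the list was at -0.61, but at 0.0116 among genes with at least 10 CPM in each assay and at 0.16 among those with at least 30 CPM of mRNA. The first of these filters asks for footprints too, so it takes out members with few of them, such as spo-11. Of 11 oocyte and eggshell genes 4 were low (36.4%), with egg-3 of the eggshell at -3.29 ± 0.13 (SE). The oocyte lectin clec-87, with 527, 594 and 640.3 CPM of mRNA and 1073, 1182 and 1447 CPM of footprints, was at 1.04 ± 0.07 (SE) and missed the rule.

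Many genes of the synapse were low. Of 79 tested, 30 were low (37.97%, beside 11.9% of all genes) and none was high, with a median log2 TE of -0.80, and 71 of the 79 were below 0. They took 0.668% ± 0.00798 (SD, n = 6) of mRNA counts and 0.338% ± 0.00849 (SD, n = 6) of footprint counts, with no overlap between libraries of the 2 assays. The calcium channel of presynaptic terminals, unc-2, had 125.9, 132 and 139.8 CPM of mRNA, 10.7, 12.9 and 15.3 CPM of footprints and a log2 TE of -3.34 ± 0.06 (SE) (adjusted p = 4.95e-25 in edgeR's test against 2-fold). The vesicle priming factor unc-13 had 85.4, 91.9 and 95.9 CPM of mRNA, 10.8, 11.8 and 13.3 CPM of footprints and a log2 TE of -2.94 ± 0.06 (SE).

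Other synaptic genes were closer to the average but still low. They include ida-1 of dense core vesicles at -2.44 ± 0.06 (SE), the vesicle fusion protein snb-1 at -1.43 ± 0.04 (SE) and the muscle and neuron calcium channel egl-19 at -1.46 ± 0.05 (SE). Of 24 G protein subunits and their regulators 7 were low (29.2%, beside 11.9% of all genes) and none was high. Their median was -0.73. Here egl-30, the Gq alpha subunit, had 839, 868 and 905 CPM of mRNA, 147, 168 and 184 CPM of footprints and a log2 TE of -2.37 ± 0.04 (SE), while the Go subunit goa-1 at -0.71 ± 0.04 (SE) missed the rule.

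Neuropeptides and insulin-like peptides were split, with 4 high (12.5%) and 8 low (25%) of 32, beside 4.24% and 11.9% of all genes. Their median was -0.66 relative to all genes. It turned to 0.77 among genes with at least 10 CPM in each assay and to 1.29 among those with at least 30 CPM of mRNA, where 3 members were measured. The first of these filters also takes out members with few footprints. Among the high ones were nlp-31 at 1.56 ± 0.06 (SE) and nlp-33 at 1.604 ± 0.10 (SE), which are best known as antimicrobial peptides of the epidermis. Genes of muscle stood at the average, with a median of -0.08 on the list of sarcomere and attachment proteins. Of 60, 8 were low (13.3%, near the 11.9% of all genes).

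Metabolic genes held extremes of both kinds. On the list of fatty acid metabolism and lipid binding, 8 of 66 were high (12.1%) and 4 were low (6.06%). Over all genes the shares were 4.24% and 11.9%. Fatty acid synthase fasn-1 had 1110, 1231 and 1288 CPM of mRNA and 3985, 4713 and 4988 CPM of footprints, the second most of any gene, with a log2 TE of 1.92 ± 0.05 (SE) (adjusted p = 4.33e-16 in edgeR's test against 2-fold). The gene of the preceding step, the acetyl-CoA carboxylase pod-2, was at -0.12 ± 0.04 (SE) with overlapping libraries. In peroxisomal breakdown of fatty acids, dhs-28 was high at 1.59 ± 0.04 (SE).

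All 4 low members act in making polyunsaturated fatty acids. The omega-3 desaturase fat-1 had 138, 151 and 165 CPM of mRNA and 4.98, 6.16 and 7.43 CPM of footprints, with a log2 TE of -4.63 ± 0.08 (SE), a 24.8-fold lower share (adjusted p = 4.10e-27, edgeR). The delta-5 desaturase fat-4 was at -3.09 ± 0.07 (SE), the elongase elo-1 at -2.43 ± 0.07 (SE) and the delta-12 desaturase fat-2 at -2.23 ± 0.25 (SE). By contrast fat-6, which makes monounsaturated fatty acids, had 15.4, 17.5 and 22.2 CPM of mRNA and 14.8, 16.2 and 23.02 CPM of footprints, which overlap, and a log2 TE of -0.07 ± 0.11 (SE). In fat-2, 1 Ribo-seq library reached 10.3 CPM where the median was 3.23.

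Nuclear genes of oxidative phosphorylation had a median log2 TE of -0.57. Of 53, 10 were low (18.9%, beside 11.9% of all genes) and 1 was high. They took 1.42% ± 0.0229 (SD, n = 6) of mRNA counts and 0.796% ± 0.0525 (SD, n = 6) of footprint counts. Cytochrome c, cyc-2.1, had 589, 613 and 628 CPM of mRNA, 73.3, 83.6 and 94.5 CPM of footprints and a log2 TE of -2.86 ± 0.04 (SE). The ADP/ATP carrier ant-1.1 had 2282, 2426 and 2447 CPM of mRNA, 403, 439 and 520.4 CPM of footprints and a log2 TE of -2.41 ± 0.05 (SE). The catalytic subunit of ATP synthase, atp-2, was low at -1.18 ± 0.06 (SE), whereas the succinate dehydrogenase subunit sdha-1 was at 0.58 ± 0.04 (SE). Enzymes of glycolysis, gluconeogenesis and the TCA cycle, with 3 high (6.98%) and 2 low (4.65%) of 43, had a median of 0.16.

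Genes of DNA replication and mitosis included many high ones. Of 128 genes, 17 were high (13.3%) and 9 low, against 4.24% and 11.9% over all genes. The list took 2.38% ± 0.0337 (SD, n = 6) of mRNA counts and 3.81% ± 0.0831 (SD, n = 6) of footprint counts, without overlap. The replicative helicase stood out, with all 6 of its MCM subunits high. The highest was mcm-2, with 234, 262 and 288 CPM of mRNA, 976, 1026 and 1107 CPM of footprints and a log2 TE of 1.98 ± 0.05 (SE) (adjusted p = 7.80e-19 in edgeR's test against 2-fold). The others followed closely, mcm-6 at 1.88 ± 0.04 (SE), mcm-3 at 1.83 ± 0.04 (SE), mcm-5 at 1.82 ± 0.04 (SE), mcm-7 at 1.77 ± 0.04 (SE) and mcm-4 at 1.52 ± 0.04 (SE).

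Further genes of DNA synthesis were high, including rpa-1, which coats single-stranded DNA, at 1.63 ± 0.04 (SE) and the ribonucleotide reductase subunit rnr-1 at 1.47 ± 0.04 (SE). Cyclins of the B type parted ways. The gene cyb-3 had 1286, 1376 and 1427 CPM of mRNA, 2909, 3121 and 3302 CPM of footprints and a log2 TE of 1.19 ± 0.04 (SE), and cyb-1 was at 0.92 ± 0.04 (SE), inside the rule. In contrast cyb-2.2 had 92.3, 111 and 125.5 CPM of mRNA, 7.41, 10.4 and 12.9 CPM of footprints and a log2 TE of -3.42 ± 0.11 (SE), although it has a close copy in cyb-2.1 that could share its reads.

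Tubulins that are expressed in most cells were high. The alpha tubulins tba-1 and tba-2 had log2 TE of 1.38 ± 0.04 (SE) and 1.16 ± 0.04 (SE), and the beta tubulins tbb-1 and tbb-2 had 1.48 ± 0.04 (SE) and 1.18 ± 0.05 (SE). For tbb-1 this was 671, 711 and 741 CPM of mRNA against 1889, 1974 and 2117 CPM of footprints. Actins are near-identical at the coding level, and act-1, low at -3.60 ± 0.05 (SE), and act-4, at -0.43 ± 0.05 (SE), cannot be separated with certainty.

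Replication-dependent histone genes had the highest ratios of all, with 24 of 25 high and a median log2 TE of 5.27. They took 0.0289% of mRNA counts and 0.919% ± 0.0512 (SD, n = 6) of footprint counts. The mRNA-seq was made from poly(A) RNA per the labels, and messages of these histones lack a poly(A) tail, so their ratio is not read as translation. Within the list, his-62 had 3.84, 4.16 and 5.97 CPM of mRNA and 1275, 1374 and 1518 CPM of footprints, and his-37, the one member not called, had 63.5, 71.1 and 74.8 and 105, 111 and 122 CPM. The genes are near-identical copies. Variant and linker histones, whose messages carry tails, had a median of 0.06 with 0 of 14 called in either direction. The linker histone his-24 had 2299, 2547 and 2868 CPM of mRNA, 3002, 3275 and 3787 CPM of footprints and a log2 TE of 0.37 ± 0.06 (SE).

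**Figure D3:**
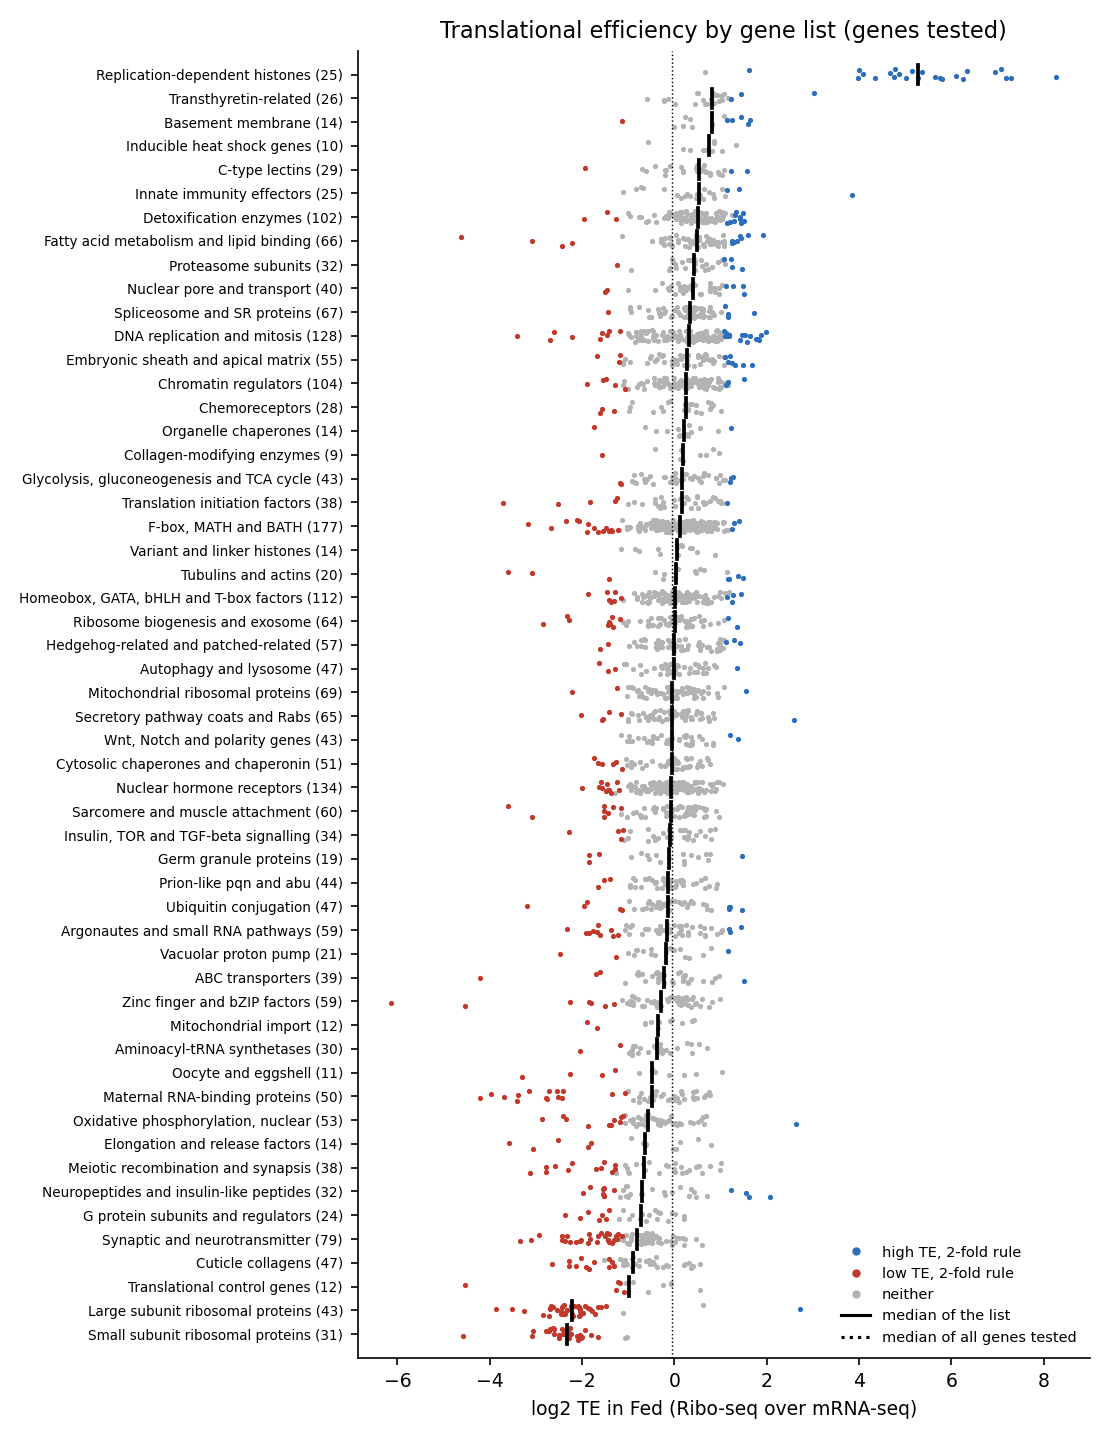
Log2 TE of each gene tested, by gene list, with the number of genes tested in brackets; colours give calls by the 2-fold rule, black bars the median of each list and the dotted line the median of all genes, -0.04. The 2 lists of ribosomal proteins lie at -2.22 and -2.33, and replication-dependent histones at 5.27.

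Lists of extracellular matrix proteins differed in their medians, as the plot of gene lists shows, but members within a list differed too. Basement membrane genes had a median log2 TE of 0.81. Of 14, 5 were high (35.7%) and 1 low (7.14%), beside 4.24% and 11.9% of all genes. They took 0.854% ± 0.0305 (SD, n = 6) of mRNA counts and 1.55% ± 0.102 (SD, n = 6) of footprint counts. Nidogen, nid-1, had 339, 373 and 405 CPM of mRNA, 1020, 1148 and 1272 CPM of footprints and a log2 TE of 1.64 ± 0.05 (SE). The laminin alpha chain epi-1 had 879, 939.8 and 983 CPM of mRNA, 2216, 2536 and 2807 CPM of footprints and a log2 TE of 1.44 ± 0.05 (SE), and the laminin gamma chain lam-2 was at 1.24 ± 0.04 (SE). Type IV collagen, which shares this layer, was at the average, with let-2 at -0.00 ± 0.05 (SE) and overlapping libraries, and emb-9 at 0.18 ± 0.05 (SE). The low one, the type XVIII collagen cle-1 at -1.14 ± 0.06 (SE), lost its call in edgeR without replicate 4, without replicate 5, with median centring or after thinning to equal depth, and with limma voom or DESeq2.

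In the apical matrix that covers the epidermis of embryos, 7 of 55 genes were high (12.7%) and 3 low (5.5%), with a median of 0.27. Over all genes the shares were 4.24% and 11.9%. The zona pellucida domain proteins noah-1 and noah-2 led the high ones. For noah-1, mRNA was 1089, 1190 and 1221 CPM and footprints 3425, 3797 and 4006 CPM, with a log2 TE of 1.69 ± 0.04 (SE), and noah-2 was at 1.48 ± 0.04 (SE). Sheath components sym-1 and fbn-1 were at 1.303 ± 0.04 (SE) and 1.16 ± 0.06 (SE). The call of fbn-1 was lost with limma voom and with DESeq2.

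Cuticle collagens leaned the other way, with 12 of 47 low (25.5%, beside 11.9% of all genes), none high and a median log2 TE of -0.90. Of 176 such genes in mRNA-seq, 50 have a Ribo-seq row. An example is col-166, with 89.5, 105 and 115 CPM of mRNA, 10.7, 14.8 and 24.3 CPM of footprints and a log2 TE of -2.64 ± 0.14 (SE). The most abundant collagens were close to the average. The gene sqt-3 had 3466, 3574 and 3846 CPM of mRNA, 2449, 2689 and 3114 CPM of footprints and a log2 TE of -0.41 ± 0.05 (SE), and dpy-17 was at 0.22 ± 0.04 (SE). As a list they took 1.39% of mRNA counts and 1.25% of footprint counts, with overlapping libraries.

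Other families are given beside the 4.24% high and 11.9% low of all genes. The proteasome had 4 high (12.5%) and 1 low (3.1%) of 32, with a median of 0.43. Its high members belong to the regulatory particle, such as rpn-1 at 1.46 ± 0.04 (SE) and the ubiquitin receptor rpn-10 at 1.22 ± 0.04 (SE), and the low one, pas-3 at -1.25 ± 0.05 (SE), to the core. Detoxification enzymes had 10 high (9.8%) and 3 low (2.9%) of 102, and transthyretin-related proteins 3 high (11.5%) and none low of 26. Those 2 families have 202 and 58 genes in mRNA-seq, and members with too few counts in either assay could not be called. Nuclear pore and transport genes had 4 high (10%) and 2 low (5%) of 40, and spliceosome genes 4 high (5.97%) and 1 low (1.49%) of 67. Transcription factor families lay near the background, with 4 high and 7 low among homeobox, GATA, bHLH and T-box factors, and none high and 11 low of 134 nuclear hormone receptors. None of the names on a list of mitochondrially encoded genes was matched in the tables.

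The named extremes of the range were drawn by rule from genes with at least 10 CPM in each assay, at most 2 per name stem. Besides those given above, the lowest included the ABC protein abcf-2, with 695, 699 and 709 CPM of mRNA, 30.9, 38.9 and 44.9 CPM of footprints and a log2 TE of -4.21 ± 0.05 (SE). The arginine methyltransferase prmt-1 had 415, 441 and 463 CPM of mRNA, 27.1, 31.6 and 40.7 CPM of footprints and a log2 TE of -3.73 ± 0.06 (SE). A Y-box RNA-binding protein, cey-2, was at -3.41 ± 0.14 (SE). The highest, after histones, were txt-14 at 3.41 ± 0.19 (SE), the transthyretin-related ttr-16 at 3.02 ± 0.10 (SE), the glutaredoxin glrx-10 at 2.66 ± 0.08 (SE) and emc-5 of a membrane insertion complex at 2.59 ± 0.10 (SE). Further down came igdb-2 at 2.18 ± 0.04 (SE), sdz-30 at 2.15 ± 0.05 (SE) and glf-1, which makes a sugar donor for surface glycans, at 2.01 ± 0.04 (SE).

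Some of these share their place with another gene. In the RefSeq table of WBcel235, 29.7% of 10050 matched genes overlapped another protein-coding gene, against 38.03% of those called high and 27.9% of those called low. Among the low genes named here, abcf-2, atf-4, cey-1, cle-1, eef-1A.1, eef-1G, egg-3, egl-30, gcn-2, ife-1, mlc-1, mlc-2, nos-1, nos-2, prg-1, smd-1 and spo-11 do so. Among the high ones, dhs-28, emc-5, epi-1, fbn-1, glrx-10, igdb-2, mcm-2, mcm-3, mcm-4, mcm-6, mcm-7, rpn-10, sym-1 and ttr-16 do so. Of the genes called neither way, act-4, clec-87, crt-1, his-37, ife-3, pod-2 and rpl-39 overlap another protein-coding gene. Genes of snoRNA lie within rps-12, rps-29, eef-1G, cgh-1, iff-2 and rnr-1, and tRNA genes within ida-1. The names rla-0, rpl-2, rpl-10 and rpl-37 were not matched there. The strand used in counting is not given in the sources used here, so reads of such pairs could have been assigned to either gene. What part this has in their TE was not tested.

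The genes with most mRNA and those with most footprints were the same only in part. Among the 8 with most counts in each assay, pdi-2, hsp-3, dpy-17 and his-24 were on both sides. After eef-1A.1, the most mRNA counts went to the calreticulin crt-1, sqt-3, pdi-2, hsp-3, dpy-17, hmg-1.1 and his-24. The most footprints went to pdi-2, a protein disulfide isomerase, with 4778, 4833 and 5391 CPM, then to fasn-1, noah-1, hsp-3, cav-1, his-24, dpy-17 and cyb-3. The chaperone hsp-3 of the endoplasmic reticulum had 2711, 2902 and 3160 CPM of mRNA and 3547, 3735 and 3808 CPM of footprints. It took 1002 genes to hold 50 percent of mRNA counts and 852 genes to hold 50 percent of footprint counts.

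The middle of the range was much the same at each mRNA level. When genes were put in 5 classes by their mRNA level in the Empty_vector libraries, which no Fed value enters, the median log2 TE was 0.05, -0.09, -0.03, -0.04 and -0.09 from the lowest class to the highest. The share of genes called low was 5.69% in the lowest class, 12.9%, 12.8% and 11.8% in the next, and 16.2% in the highest. In the lowest class that share is limited by what is listed. Genes listed in Ribo-seq had 10 counts or more in no fewer than 13 of the 24 libraries there, so a gene with little mRNA and few footprints is not listed. At 30 CPM of mRNA or more, 99.6% of genes had a row in the Ribo-seq table.

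Related genes offered a comparison within families. For 32 pairs of related genes, the log2 ratio of the pair was compared between the 6 Ribo-seq and 6 mRNA-seq libraries in an exact two-sided permutation test, with Benjamini-Hochberg adjustment over the 32. In 28 pairs the ratio differed at adjusted p under 0.05, and in 24 the libraries of the assays did not overlap. The smallest p this design allows is 0.00217, or 0.00289 after adjustment, and all pairs named next except those said to miss the threshold are at this value.

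**Figure D4:**
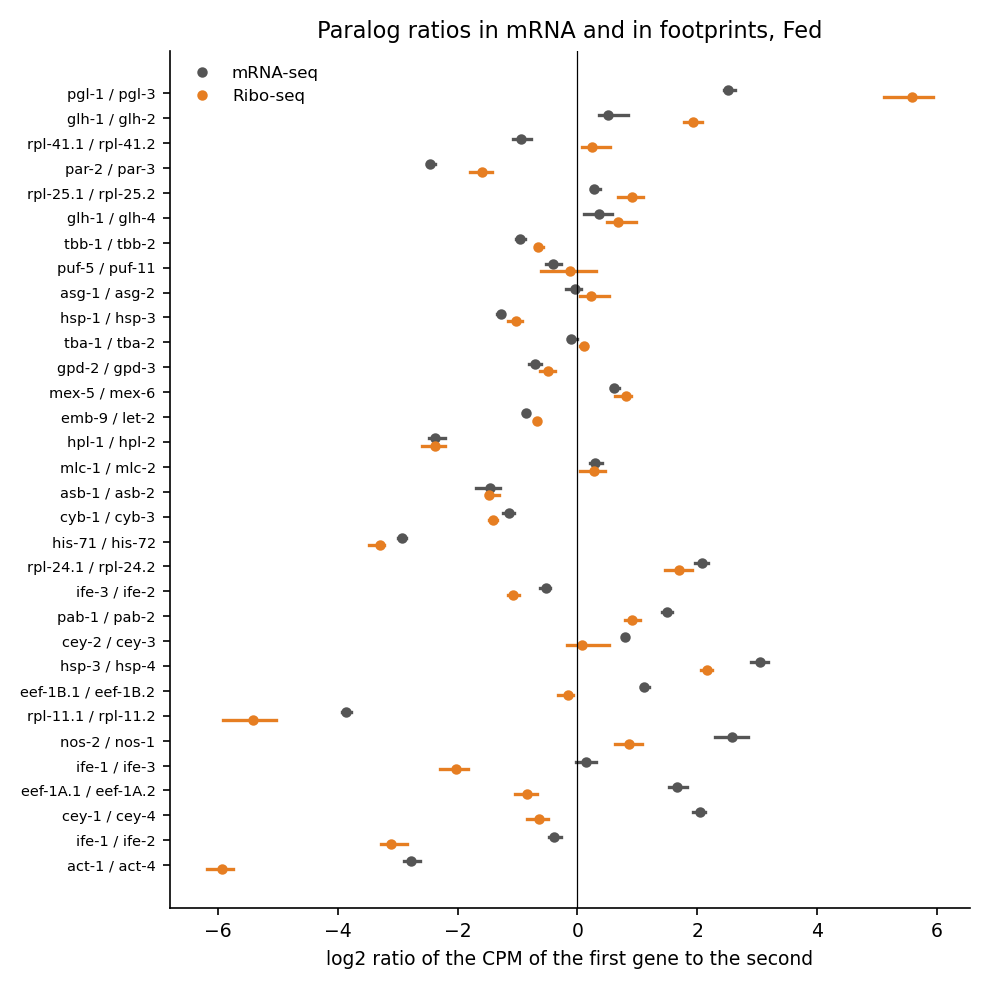
Log2 ratio of the first gene to the second for 32 pairs, as the mean (point) and range (line) of 6 mRNA-seq and 6 Ribo-seq Fed libraries. For eef-1A.1 over eef-1A.2 and cey-1 over cey-4 the ratio lies above 0 in mRNA and below 0 in footprints, and for hpl-1 over hpl-2 the assays overlap.

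The plot of paralog ratios shows several pairs in which the gene with more mRNA was not the one with more footprints. The factor 1A genes eef-1A.1 and eef-1A.2 had a log2 ratio of 1.66 in mRNA and -0.85 in footprints. For the Y-box proteins cey-1 and cey-4 the ratio was 2.04 in mRNA and -0.64 in footprints. Here cey-1 had 2185, 2265 and 2305 CPM of mRNA and 362, 400 and 416 CPM of footprints, while cey-4 had 528, 542 and 604 and 573, 619 and 651 CPM. The germline cap-binding proteins ife-1 and ife-3 had a ratio of 0.15 in mRNA and -2.03 in footprints, and ife-1 against ife-2 differed by -2.72 between assays.

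The largest differences between assays were those of pgl-1 over pgl-3, at 3.08, and of act-1 over act-4, at -3.15. The germ granule helicases glh-1 and glh-2 differed by 1.41 and the Nanos genes nos-2 and nos-1 by -1.72. Among ribosomal proteins, rpl-11.1 over rpl-11.2 differed by -1.55. Small but separate differences were seen for tba-1 over tba-2, at 0.22, and for the type IV collagen chains emb-9 over let-2, at 0.18. How far reads were split between related genes was not tested for any pair, tubulins included.

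In 4 pairs the threshold was missed, and their libraries overlapped. These were hpl-1 over hpl-2 (adjusted p = 0.952 in the exact permutation test), mlc-1 over mlc-2 and asb-1 over asb-2 (both 0.892, permutation), and puf-5 over puf-11 (0.1003, permutation). The differences between assays were -0.00, -0.01, -0.02 and 0.28.

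Much of this range was also present in the 8 Empty_vector libraries, which come from another experiment of the study. There the 2-fold rule called 2.55% of 10312 genes high and 9.92% low. Over 9968 genes tested in both groups, log2 TE had a Pearson r of 0.92 across genes. Of the genes called high in Fed, 51.8% were high in Empty_vector, and of those called high in Empty_vector, 86.3% were high in Fed. For low genes the shares were 65.9% and 80.2%, and no gene was called in opposite directions. The group values of atf-4 were -4.53 in Fed and -4.43 in Empty_vector, those of unc-2 -3.34 and -3.47, and those of mcm-2 1.98 and 1.88.

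Of the lists tested in both groups, the medians lay farthest apart for ribosomal proteins. The median log2 TE of the large subunit was -2.22 in Fed and -0.67 in Empty_vector, and that of the small subunit -2.33 and -0.64. The Fed value was the lower one for 42 of 43 large and 31 of 31 small subunit genes, and for 4531 of all 9968. In Empty_vector, large subunit genes took 2.195% to 2.48% of mRNA counts, close to the 2.30% to 2.53% of Fed, but 1.47% to 1.51% of footprint counts, where Fed libraries had 0.448% to 0.578%. In Empty_vector 6 large and 3 small subunit genes were low. The lowest were rps-12 and rpl-2 in Fed, and they were low in Empty_vector as well, at -2.46 and -2.15.

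**Figure D5:**
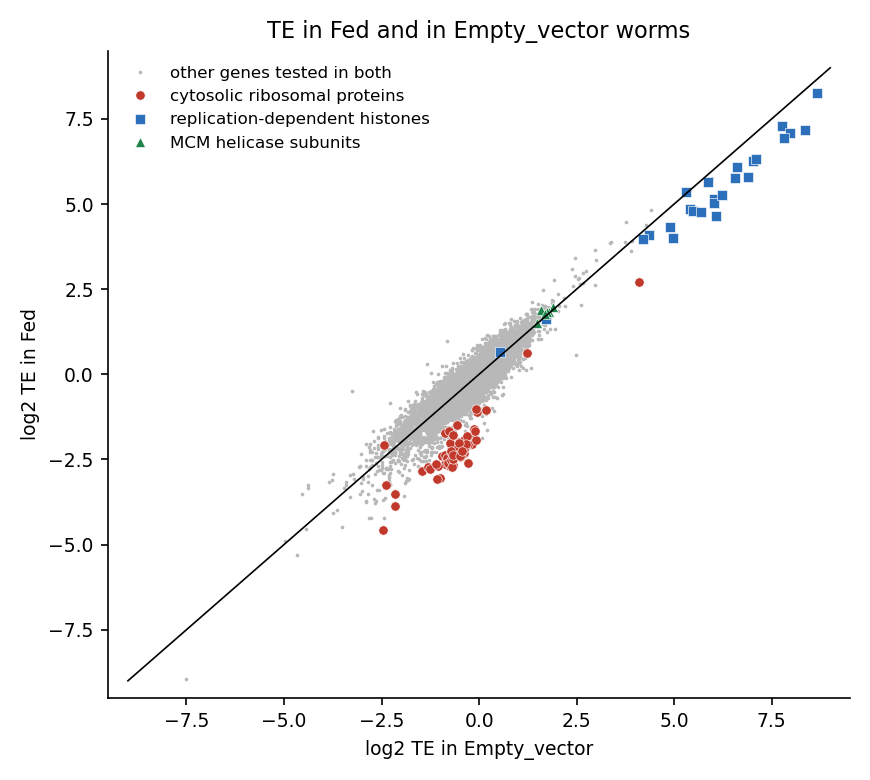
Log2 TE in Fed against log2 TE in Empty_vector, with 1 point per gene tested in both groups and a line of equal values. Ribosomal proteins lie below the line in all but 1 gene, and MCM subunits lie close to it, with their Fed values slightly higher.

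The same side-by-side reading for other lists gave smaller gaps. The next in size was that of replication-dependent histones, at 5.27 in Fed and 6.03 in Empty_vector, with 23 of 25 lower in Fed. Median log2 TE of oxidative phosphorylation was -0.57 in Fed and -0.06 in Empty_vector, and that of elongation and release factors -0.64 and -0.20. Basement membrane genes were at 0.81 and 0.38, and synaptic genes at -0.80 and -0.86. The groups belong to separate experiments, so diet, handling and sequencing run cannot be told apart here, and the difference between them was not tested.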

How the data were processed

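Counts per gene were deposited by the authors as whole numbers, 1 column per library, for 6 Fed mRNA-seq and 6 Fed Ribo-seq libraries. The submitters' processing notes name cutadapt, an adapter trimmer, but no version. Which aligner, counting tool, strand setting, genome build and annotation made the counts is not given in the sources used here. Reads in untranslated regions may or may not be in a count, and a TE set beside that of another gene depends on this. The deposited log2 TE values equal the log2 ratio of counts plus 1 with no scaling for library size, within 1e-09 for 64200 of 64200 Fed values, and served only as an alternative. Symbols came from a reference table that named 10090 of the 10096 genes tested.

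CPM were taken over all gene rows of each table. Genes had to pass edgeR's filterByExpr in each assay. A quasi-likelihood model of assay was fitted in edgeR 4.0.16 (R 4.3.3) without further scaling factors, tested against no difference and, with glmTreat, against a 2-fold difference, and adjusted by Benjamini-Hochberg over 10096 genes. SE of a log2 TE was taken from its F statistic. Ratios of gene pairs used a prior count of 0.5 and exact permutation of 6 against 6 libraries. The list value is the median of its tested members, with no test of a list. Scripts were tested on simulated data. Alternatives were limma 3.58.1, DESeq2 1.42.0, other scaling and filters, thinning to 4170208 counts, the replicate block and leaving out each replicate.

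Genes were named by rule: the 12 lowest and 12 highest called genes with at least 10 CPM in each assay, at most 2 per name stem, the 8 with most counts in each assay, up to 2 extremes each way per list, and the pairs. Other genes named in the text were chosen after their values were seen. The lists, the pairs and the choice of Fed were made with earlier results of these data known. Annotated overlaps came from RefSeq for WBcel235. Sequences were not used here.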

Additional observations from a re-analysis of the deposited data

Results flagged for a closer look

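Among 322 sets of 6 library values examined, 14 had 1 library set apart from the other 5 by a gap larger than Dixon's critical value of 0.625 of the range. Chance alone flags about 1 in 20 such sets, and no single library accounted for them all.

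In Ribo-seq, rpl-37 reached 13.9 CPM in replicate 2, nos-1 fell to 2.16 CPM in replicate 4, nlp-31 reached 109 CPM in replicate 1, and txt-14 was lowest, at 196 CPM, in replicate 1. In mRNA-seq, cey-4 was at 604 CPM in replicate 1, glh-1 at 32.3 CPM and his-62 at 5.97 CPM in replicate 4, and htp-2 at 34.4 CPM and his-32 at 29.9 CPM in replicate 6. None of these moved the gene to the other side of its call when that replicate was left out.

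For 5 lists, 1 replicate number stood apart in the median log2 TE relative to all genes. These were embryonic sheath and apical matrix genes at 0.0582 in replicate 1, DNA replication and mitosis at 0.42 in replicate 1, coats and Rabs of the secretory pathway at 0.0603 in replicate 1, C-type lectins at 0.66 in replicate 2 and innate immunity effectors at 0.19 in replicate 5.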

How the results depend on the processing

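No named gene went from high to low or from low to high under any alternative tried. The sign of genes near the library average, such as let-2 and eef-1A.2, is not fixed by this. Of the values for single genes, 5189 kept their side of the 2-fold rule, 43 lost the call and 3 gained it, and of the list medians 938 stayed within the spread between replicates and 88 moved beyond it. Filters mattered most. With at least 10 CPM in each assay 773 genes were low, and with at least 30 CPM of mRNA 2456 genes were above and 2882 below the average and 254 were high, in each case among fewer genes tested. List medians relative to all genes, under these filters in turn, were 0.81 and 1.01 for basement membrane, 0.77 and 1.29 for neuropeptides, 4.76 and 3.26 for replication-dependent histones, -0.24 and -0.34 for maternal RNA-binding proteins, and 0.0116 and 0.16 for meiotic genes. With the second filter alone they moved to -1.02 for synaptic genes and 0.51 for tubulins and actins. Without a filter they were -0.996 for neuropeptides, -0.57 for oocyte genes and -0.77 for meiotic genes. With libraries thinned to equal depth they were 5.10 for replication-dependent histones, -0.36 for maternal RNA-binding proteins, -0.39 for oocyte genes and -0.38 for meiotic genes, and from the deposited TE values 4.81 for these histones. Leaving out 1 replicate at a time gave -0.85 to -0.63 for neuropeptides and 0.0922 to 0.15 for tubulins and actins. Where not given here, the cause was not tested. DESeq2 called 362 genes high and 1075 low, and limma voom 373 and 1073.

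Same-numbered libraries of the 2 assays are tied in the labels by their number alone, and a common source is not stated. The correlation of their deviations ran from 0.03 to 0.21, above 0.1 in 2 of 6 pairs, and 4 of 6 Ribo-seq libraries matched their own number best. With the replicate block, 4017 genes were above and 4431 below the average, and 445 were high and 1215 low. Classes by protein length were not run, since no protein table was used here.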

Other observations

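Further lists showed modest values, given beside 4.24% high and 11.9% low of all genes. Inducible heat shock genes had a median log2 TE of 0.76 over the 10 tested of 17 in mRNA-seq, with 9 above 0. C-type lectins were at 0.54, with 2 high and 1 low of 29, and innate immunity effectors at 0.53, with 3 high of 25. Chromatin regulators, with 3 high (2.9%) and 5 low (4.8%), took 1.90% of mRNA counts and 2.29% of footprint counts. Genes of Wnt, Notch and polarity were at -0.05 and insulin, TOR and TGF-beta signalling at -0.09. F-box, MATH and BATH proteins were at 0.11, with 3 high (1.7%) and 15 low (8.5%) of 177.

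The lowest member of the list of zinc finger and bZIP factors was zip-9, at a log2 TE of -6.14 ± 0.08 (SE). It had 155, 164 and 167 CPM of mRNA and 1.71, 2.36 and 2.64 CPM of footprints, but it overlaps another protein-coding gene and holds a snoRNA gene in RefSeq. The oocyte maturation gene oma-2, chosen after its values were seen and the partner of oma-1, had 107, 121 and 146 CPM of mRNA and no row in the Ribo-seq table, where oma-1 had 94.0, 101 and 113 CPM. It is 1 of 8 genes at 100 CPM of mRNA or more without a row there. What this says of its translation was not tested.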
